A study of Mus musculus with 12 samples.

Results

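Ribosomal protein genes, those of the cytosolic ribosome and those of the separate mitochondrial ribosome, were examined for TET2 sites in 2 cultures of mouse blood-forming cells. Members were the protein-coding RefSeq genes with an Rpl, Rps, Mrpl or Mrps symbol followed by a digit, with Rplp0 to Rplp2 and Rpsa added and the Rps6k kinases left out. This gave 169 of 21887 protein-coding genes. They fall into 56 genes of the cytosolic large subunit class, 35 of the cytosolic small class, 49 of the mitochondrial large class and 29 of the mitochondrial small class. The symbol rule also takes in a few genes that are no standard ribosomal protein, such as Rps19bp1, whose product binds RPS19, and the retrogene-like entries Rpl37rt and Rps27rt.

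TET2, an enzyme that oxidizes 5-methylcytosine, was located by ChIP-seq, which sequences the DNA recovered with an antibody against a chromatin protein. One culture, called myeloid here, was immortalized with the retroviral transgene MigR1-AML1-ETO, and its genotypes were Tet2fl/fl; AML1-ETO and Tet2-/-; AML1-ETO. The floxed Tet2 allele served as the wild type there. The other culture, called AML here, was acute myeloid leukemia of genotype Npm1+/cA; Fl3+/ITD (spelled as labelled), with or without Tet2-/-. Both kinds of cells grew with 50 ng/ml SCF, 10 ng/ml IL-3 and 10 ng/ml IL-6, and both were fixed with 2 mM disuccinimidyl glutarate and then 1% formaldehyde. Anti-TET2 libraries numbered 2 wild-type and 2 knockout per culture, and an input and an IgG library brought the total to 12. The labels do not say how many animals or independent cultures stand behind them.

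For each culture the authors deposited a single list of called TET2 positions, with 7002 AML sites and 19706 myeloid sites. Merging sites that overlapped within a list left 6895 and 18822. The lists hold positions alone, with no height, score or value per library, so presence of a site is the only readout here. Read depth at a site is unknown. No difference below has a replicate check, and no test was made. The intervals in brackets are exact Clopper-Pearson 95% intervals over genes or sites and cover counting error only.

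Cytosolic ribosomes translate the messenger RNAs of the nucleus, and their proteins are made in large and roughly equal amounts in growing cells. Mitochondrial ribosomes translate the few messenger RNAs of mitochondrial DNA, which encode respiratory chain subunits, and all of their proteins are nuclear-encoded and imported. Many cytosolic ribosomal protein messages begin with a run of pyrimidines, the TOP tract, through which mTOR signalling controls their translation. In people, loss of 1 copy of any of several cytosolic ribosomal protein genes causes Diamond-Blackfan anemia, in which red cell precursors fail. Loss of RPS14 contributes to the anemia of the 5q- syndrome, a myeloid neoplasm.

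Of the 91 myeloid sites at genes with a known strand, 46 covered a transcription start, and the sequences of 4 such promoters are shown to make that position concrete, with 2 promoters that had no site. Each runs 5′ to 3′ from 250 bases before to 50 bases after the RefSeq start, in build GRCm38.p6, whose chromosomes are those of mm10. Capitals mark matches to the searched motifs and a C followed by at least 4 pyrimidines that begins within 10 bases of the listed start. A myeloid site covered the whole 300 bases of the first 4, 1 from each class.
Rpl13 (chr8:123102100-123102399, plus strand): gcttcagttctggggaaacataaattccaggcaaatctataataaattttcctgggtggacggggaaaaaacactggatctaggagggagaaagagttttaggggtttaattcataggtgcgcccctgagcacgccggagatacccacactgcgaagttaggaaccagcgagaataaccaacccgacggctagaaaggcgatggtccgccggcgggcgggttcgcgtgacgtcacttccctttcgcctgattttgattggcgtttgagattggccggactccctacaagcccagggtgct
Rps10 (chr17:27635195-27635494, minus strand): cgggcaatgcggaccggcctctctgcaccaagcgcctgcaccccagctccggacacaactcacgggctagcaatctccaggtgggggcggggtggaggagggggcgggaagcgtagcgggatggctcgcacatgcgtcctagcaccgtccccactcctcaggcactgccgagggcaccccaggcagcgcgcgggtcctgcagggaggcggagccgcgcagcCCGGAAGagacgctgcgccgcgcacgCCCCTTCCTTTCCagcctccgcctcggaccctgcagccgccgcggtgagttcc
Mrpl45 (chr11:97315466-97315765, plus strand): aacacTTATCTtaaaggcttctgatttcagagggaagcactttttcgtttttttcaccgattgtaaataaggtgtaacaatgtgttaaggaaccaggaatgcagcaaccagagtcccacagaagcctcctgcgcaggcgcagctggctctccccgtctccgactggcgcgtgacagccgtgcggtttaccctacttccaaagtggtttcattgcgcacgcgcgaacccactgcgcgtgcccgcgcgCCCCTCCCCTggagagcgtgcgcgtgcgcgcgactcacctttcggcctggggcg
Mrps33 (chr6:39810887-39811186, minus strand): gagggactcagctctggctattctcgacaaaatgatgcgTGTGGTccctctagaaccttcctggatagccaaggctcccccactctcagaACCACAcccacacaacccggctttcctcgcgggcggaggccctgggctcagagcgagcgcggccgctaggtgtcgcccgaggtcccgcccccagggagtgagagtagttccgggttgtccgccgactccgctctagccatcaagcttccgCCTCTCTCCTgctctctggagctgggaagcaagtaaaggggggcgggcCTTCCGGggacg
The next 2 genes had no site assigned in either list and none near the start. They are the first by symbol in each compartment with a CpG-rich promoter that also matches the YY1 motif.
Rpl13a (chr7:45128696-45128995, minus strand): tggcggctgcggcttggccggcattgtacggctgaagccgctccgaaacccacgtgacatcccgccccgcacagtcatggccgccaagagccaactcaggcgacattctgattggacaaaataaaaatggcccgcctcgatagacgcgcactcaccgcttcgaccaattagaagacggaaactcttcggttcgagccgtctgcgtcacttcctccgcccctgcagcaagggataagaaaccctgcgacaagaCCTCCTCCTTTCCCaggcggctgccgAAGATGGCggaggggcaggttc
Mrpl32 (chr13:14612988-14613287, minus strand): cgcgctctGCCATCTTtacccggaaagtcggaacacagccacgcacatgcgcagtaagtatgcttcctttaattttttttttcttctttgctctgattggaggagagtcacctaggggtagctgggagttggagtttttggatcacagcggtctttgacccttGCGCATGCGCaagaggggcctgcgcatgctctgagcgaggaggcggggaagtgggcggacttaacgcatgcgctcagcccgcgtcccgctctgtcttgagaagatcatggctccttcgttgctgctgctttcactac
The Rpl13 promoter, of a large-subunit protein, matched none of the searched motifs and had 19 CpG dinucleotides. Rps10 had an ETS match 29 bases before the start and a pyrimidine tract that begins 3 bases before it. Mrpl32 had a YY1 and an NRF1 match.

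Ribosomal protein genes had a myeloid site at a gene end more often than protein-coding genes in general, and AML sites were few. A site counted for the protein-coding gene whose start or end lay nearest, up to 100 kb, and a site whose midpoint lay within 1 kb of that end is called a gene-end site. In the myeloid list 54 of the 169 genes had a gene-end site (32.0%, 25.0 to 39.6), beside 18.6% of all protein-coding genes. In the AML list 3 of the 169 did (1.78%, 0.368 to 5.10), beside 2.74% of all. Counting sites at any distance up to the limit, 82 genes had a myeloid site (48.5%, 40.8 to 56.3), beside 40.0% of all. Likewise 16 genes had an AML site (9.47%, 5.51 to 14.9), beside 18.6% of all. When non-coding and other annotated genes also competed for the sites, 7 had an AML site (4.14%, 1.68 to 8.35), beside 12.7% of all protein-coding genes. In total 84 of the genes had a site in at least 1 list (49.7%, 41.9 to 57.5), 14 had one in both (8.28%, 4.60 to 13.5), and 85 had none. These combined counts were not made over all protein-coding genes, so they have no background and cannot be called high or low.

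**Figure D1:**
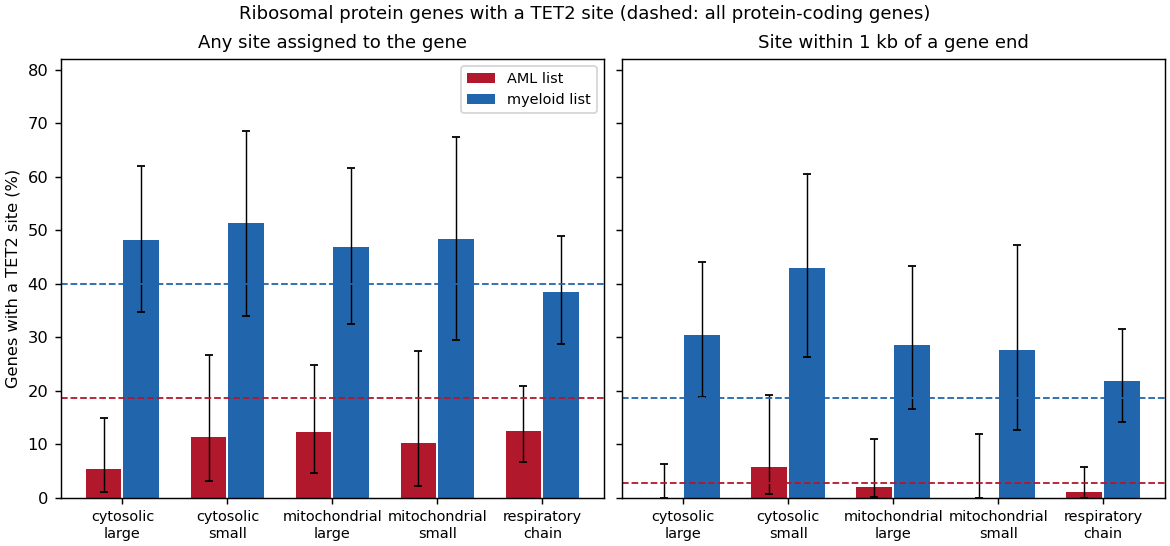
Share of genes with a TET2 site (y axis, percent) in the 4 classes of ribosomal protein genes and in respiratory chain genes, in the AML and myeloid lists, for sites at any distance up to 100 kb (left) and within 1 kb of a gene end (right). Whiskers are exact 95% intervals and dashed lines are all protein-coding genes, at 18.6% and 40.0% on the left and 2.74% and 18.6% on the right. The myeloid gene-end shares run from 27.6% to 42.9% over the 4 ribosomal classes, and their intervals overlap one another.

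All 4 classes lay above the myeloid gene-end background, although the lower bound of the interval was below it in both mitochondrial classes. Among cytosolic genes 32 of 91 had a myeloid gene-end site (35.2%, 25.4 to 45.9), and among mitochondrial genes 22 of 78 (28.2%, 18.6 to 39.5). By subunit the values were 15 of 35 cytosolic small (42.9%, 26.3 to 60.6), 17 of 56 cytosolic large (30.4%, 18.8 to 44.1), 14 of 49 mitochondrial large (28.6%, 16.6 to 43.3) and 8 of 29 mitochondrial small (27.6%, 12.7 to 47.2). These intervals overlap widely, so no order of the classes can be read from them. No gene had more than 1 gene-end site in the myeloid list. The 96 genes with respiratory chain and ATP synthase symbols had 21 with a myeloid gene-end site (21.9%, 14.1 to 31.5) and 1 with an AML one. They too were taken by how the symbol begins, so genes that encode no subunit can be among them. Their interval overlaps that of either ribosomal compartment.

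The AML list is shorter, and a myeloid list cut to the same number of sites was therefore set beside it. The 6895 widest myeloid sites, of at least 742 bp, left 21 ribosomal protein genes with a gene-end site (12.4%, 7.86 to 18.4), beside 8.94% of all protein-coding genes and beside the 3 genes of the AML list. That interval holds the background. With sites at any distance the same subset gave 36 genes (21.3%, 15.4 to 28.3), beside 21.1% of all. In this subset neither count stood apart from the background beyond its counting error. Width is not strength, and it was used only because the lists hold no score.

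About as many myeloid sites covered a transcription start as did not, and those at gene ends lay mostly at the start. RefSeq promoter entries gave a strand and start for 139 of the 169 genes. Of the 54 myeloid gene-end sites, 46 were at such genes, and 44 of those were nearer the start than the finish of the gene. Over all protein-coding genes the share nearer the start was 91.5% of 3484 such sites. Among the 91 myeloid sites of the 139 genes, 46 covered a listed start, 24 of 41 at cytosolic and 22 of 50 at mitochondrial genes. Their midpoints ran from 335 bases upstream to 124 bases downstream, and 38 sites had a midpoint within 100 bases of a start. Of these 46, 5 lay inside the gene by its outermost ends, at Mrpl22, Mrpl24, Mrps23, Rpl22 and Rps27l, and covered a start further in. None of the 46 overlapped an AML site. Covered starts were not counted over all genes, so these counts have no background. Whether they are particular to ribosomal genes cannot be told from them.

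**Figure D2:**
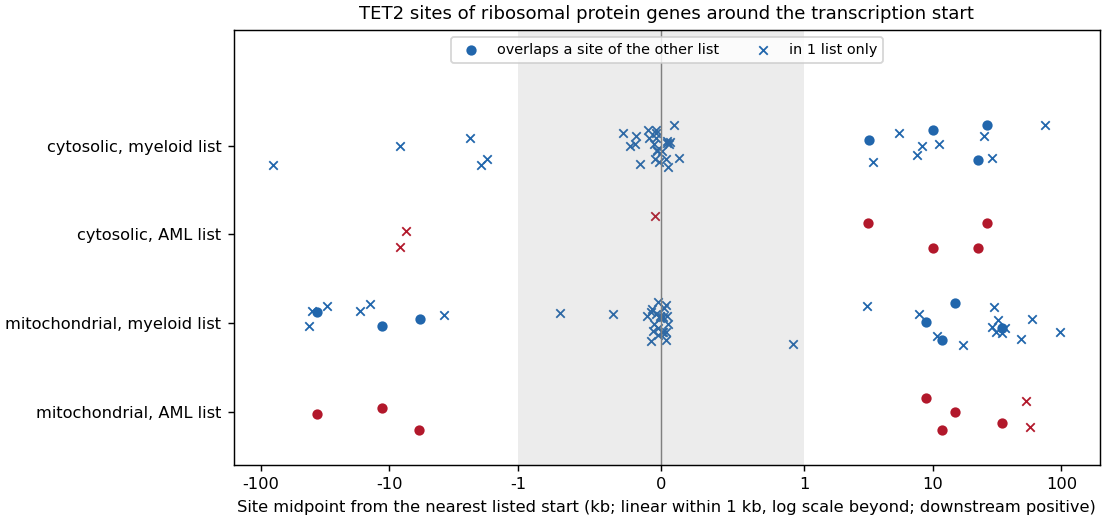
Position of every TET2 site of the ribosomal protein genes with a known strand, from the nearest listed transcription start (x axis, kb, linear within 1 kb and logarithmic beyond, downstream positive), by compartment and list. Filled circles overlap a site of the other list and crosses do not, and vertical spread within a row is for display only. Myeloid sites crowd within 1 kb of the start, where the AML list has 1 site, at Rps19bp1, and no filled circle lies in that band.

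Among large-subunit genes of the cytosolic ribosome, the myeloid sites nearest a known start were those of Rpl13, Rpl23 and Rpl9, with midpoints 9 bases downstream, 16 upstream and 29 upstream. Where no strand was at hand, Rpl8 had a myeloid site 2 bases and Rpl30 one 11 bases from a gene end. Rpl23 encodes a protein that, like RPL5 and RPL11, binds the p53 inhibitor MDM2. Rpl9 shares its 5′ region with Lias, the lipoic acid synthase gene, whose nearer end was 37 bases from the same site. Rpl13 had a further myeloid site 1.96 kb upstream of the start. Rpl22, needed in mice for the development of certain T cells, had a site 124 bases downstream of a start, and its paralog Rpl22l1 had one 93 bases upstream. Rpl27a carried a site of 859 bp, 178 bases upstream of its start. Rpl24 and Rpl32l had 2 myeloid sites each with none at a gene end. Those of Rpl24 lay beyond its far end, 7.48 and 8.30 kb from the start, where the end of Zbtb11 was as near. Those of Rpl32l lay 10.6 and 24.6 kb from the gene.

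Rpl5 was the only gene of its class with 2 AML sites. It encodes the protein that carries 5S ribosomal RNA into the large subunit together with RPL11. Rpl5 (chromosome 5, 107900508 to 107909005) had 2 AML sites and 2 myeloid sites and none at a gene end. The AML sites lay 22.5 and 26.2 kb downstream of the start, outside the gene. Each overlapped a myeloid site at the same distances. The next nearest gene end, that of Dipk1a, was 15.0 and 18.7 kb from these AML sites, against 14.0 and 17.7 kb for Rpl5, so nearness alone gives them to Rpl5 by a small margin. Rpl37, the other member of this class with a shared site, had it 10.0 kb from the start in the AML list and 10.1 kb in the myeloid list, beyond the far end of the gene.

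In the small-subunit class Rps10, Rps7 and Rps13 had the myeloid gene-end sites nearest a known start, 34 bases upstream, 36 downstream and 40 downstream. Rps7 is another of the MDM2-binding proteins. Rps19 (chromosome 7, 24884592 to 24889811), the gene most often mutated in Diamond-Blackfan anemia, carried the widest gene-end site of the whole set at 1265 bp. Its midpoint was 219 bases upstream of the start. The second widest was at Rps3, whose protein lies at the messenger RNA entry channel, with 900 bp and a midpoint 51 bases downstream. Median width of the gene-end sites was 726 bp over the ribosomal genes and 732 bp over all protein-coding genes. Rps27l, in human cells a target of p53, had a myeloid site 28 bases upstream of an inner start.

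Rps9 was the only ribosomal protein gene with an overlapping gene-end site in both lists, and that site was at the far end of the gene. Rps9 (chromosome 7, 3703954 to 3706897) had an AML site at 3706824 to 3707570 and a myeloid site at 3706825 to 3707655, with midpoints 3.16 and 3.20 kb from the start and 300 and 343 bases from the gene's finish. The next gene end, of the inhibitory receptor gene Pirb, was 5.31 kb from the AML site. At Rps10 the lists did not coincide. Its AML site was 7.43 kb upstream of the start and its myeloid sites 34 bases and 2.35 kb upstream. Rps20 had a shared site 18.9 kb from the gene, 21.1 kb from the kinase gene Lyn, and a myeloid site 21 bases from an end of the gene, whose strand was not at hand.

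Rps19bp1 had the only AML site of the set that covered a known start. That AML site, of 652 bp, had its midpoint 42 bases upstream of the start, and a second lay 8.25 kb upstream. The myeloid list held 1 site there, 248 bases from the finish of the gene and 3.44 kb from its start. None of the 3 overlapped. Because RPS19BP1 is a binding partner and not a ribosomal protein, the AML list had no site over a known start of an actual ribosomal protein gene. The remaining AML site of the cytosolic set was 86.7 kb from Rplp1, which encodes part of the stalk that recruits elongation factors. Of the other stalk genes Rplp2 had 1 myeloid gene-end site and Rplp0 had no site in either list.

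**Figure D3:**
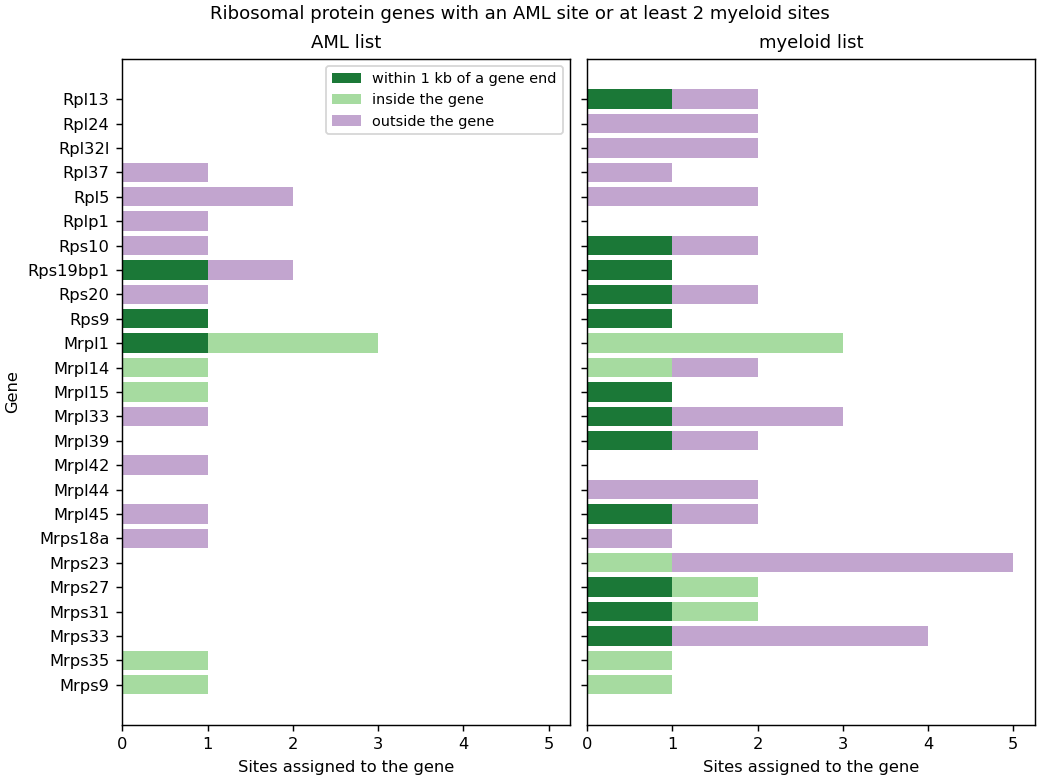
Number of TET2 sites (x axis) assigned to each of the 25 ribosomal protein genes with an AML site or at least 2 myeloid sites (y axis), in the AML list (left) and the myeloid list (right). Colours separate sites within 1 kb of a gene end, inside the gene and outside it. Mrps23 has most in the myeloid list with 5, and Mrpl1 most in the AML list with 3.

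Mitochondrial large-subunit genes had starts covered as closely. Mrpl17, Mrpl10 and Mrpl45 had the nearest myeloid gene-end sites, 7 bases downstream, 8 upstream and 10 downstream of a start. Mrpl45, which in human mitochondria lies at the tunnel through which new proteins leave, had the widest gene-end site of the mitochondrial set at 897 bp. It also had a shared site 5.87 kb (AML) and 5.83 kb (myeloid) upstream of that start. Its AML form had 1327 bp and its myeloid form 1369 bp, each merged from 2 deposited sites. Mrpl12, whose human product also binds the mitochondrial RNA polymerase, had a site 13 bases downstream of its start.

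Mrpl1 held most AML sites of the set. Mrpl1 (chromosome 5, 96209498 to 96266727) had 3 AML sites and 3 myeloid sites. The AML sites lay 11.8, 34.6 and 57.0 kb downstream of the start, the last 356 bases from the gene's finish. The first 2 overlapped myeloid sites at 11.9 and 34.6 kb, and the third myeloid site lay at 30.9 kb. Neither list had a site at the Mrpl1 start. Mrpl14 had a shared site inside the gene and a myeloid site 4.91 kb beyond it. Mrpl33 had a shared site 11.4 kb upstream and 2 further myeloid sites, 17.1 kb upstream and 920 bases downstream of the start. Mrpl15 had an AML site inside the gene, 2.12 kb from an end, and a separate myeloid site at a gene end. Mrpl42 had 1 AML site, 31.6 kb away, and no myeloid site. Mrpl39 had a myeloid site 70 bases upstream of the start and another 36.3 kb downstream of it. Both myeloid sites of Mrpl44 lay outside the gene.

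Among mitochondrial small-subunit genes Mrps33, Mrps15 and Mrps25 had the nearest sites, 5 bases upstream, 17 downstream and 25 upstream of the start. The Mrps15 site also lay 1.97 kb from an end of Csf3r, the granulocyte colony-stimulating factor receptor gene. Mrps23 (chromosome 11, 88194106 to 88211507) had 5 myeloid sites and no AML site. One covered an inner start, with its midpoint 32 bases downstream. From the nearest listed start, 3 lay 30.6 to 42.1 kb upstream and 1 lay 29.8 kb downstream. The upstream ones were 20.3 to 31.9 kb from the gene itself. A further myeloid site lay 0.394 kb from an end of Mrps23 but was assigned to another gene. The upstream sites were nearly as near to Cuedc1, whose end was at most 34 bases further from them than that of Mrps23, and their assignment is arbitrary. Mrps33 had 4 myeloid sites, with 3 between 29.0 and 34.5 kb downstream of the start, beyond the gene. Mrps27, whose protein has RNA-binding repeats, and Mrps31 each had a site over a start and another inside the gene. All 3 small-subunit genes with an AML site shared it. At Mrps9 and Mrps35 it was inside the gene, and at Mrps18a it was 36.9 kb upstream, where the end of the angiogenic factor gene Vegfa was 41.7 kb away.

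Sites shared by the cultures lay away from the promoters. Of the 20 AML sites at ribosomal protein genes, 13 overlapped a myeloid site (65.0%, 40.8 to 84.6), beside 72.6% of all assigned AML sites. These were 13 of 105 myeloid sites (12.4%, 6.76 to 20.2), beside 25.8% of all assigned myeloid sites. Of the 54 myeloid gene-end sites 1 was shared (1.85%, 0.0469 to 9.89), the one at Rps9, beside 11.9% of the gene-end sites of all genes. Of the other 51 myeloid sites 12 were shared (23.5%, 12.8 to 37.5), beside 30.4%. Gene bodies held 13 of 54 myeloid sites of mitochondrial genes (24.1%, 13.5 to 37.6) and 2 of 51 of cytosolic genes (3.92%, 0.478 to 13.5), beside 38.9% over all assigned myeloid sites. Both intervals lay below that share, and they meet at 13.5. Mitochondrial genes are also longer, with a median of 7.69 kb against 3.17 kb, and 17.2 kb over all protein-coding genes, and the part of length in these counts was not tested.

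The nearest myeloid site was close to most ribosomal protein genes, and the nearest AML site was not. The median distance from the nearer gene end to the nearest myeloid site, whichever gene it was assigned to, was 4.42 kb (quartiles 0.117 and 27.1 kb) over the 169 genes, against 18.8 kb (1.80 and 95.5 kb) over all protein-coding genes. For the AML list the medians were 73.9 kb (33.5 and 184 kb) and 93.2 kb (26.1 and 281 kb). A myeloid site lay within 10 kb of 58.6% of the ribosomal genes and of 41.1% of all genes. An AML site did so for 8.88% and 13.5%. The cytosolic and mitochondrial medians were 2.96 and 4.78 kb in the myeloid list, and 66.8 and 94.5 kb in the AML list.

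**Figure D4:**
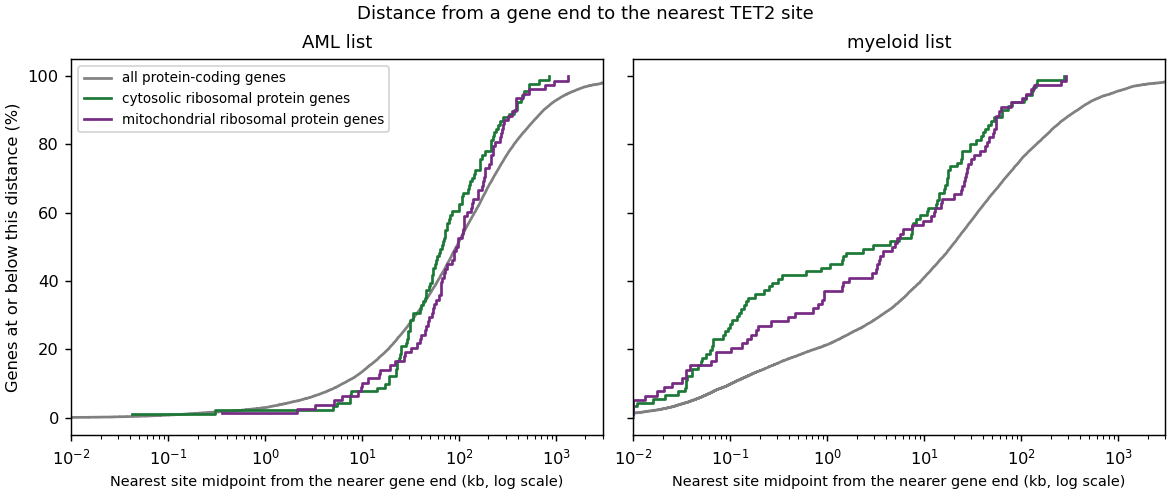
Cumulative share of genes (y axis, percent) by the distance from the nearer gene end to the nearest TET2 site midpoint (x axis, kb, log scale; distances under 0.01 kb are drawn at 0.01), for the AML list (left) and the myeloid list (right). On the right both ribosomal curves run above the curve of all protein-coding genes, with medians of 2.96, 4.78 and 18.8 kb, and at 10 kb on the left both ribosomal curves lie below it, at 8.88% together against 13.5%.

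Some gene-end sites also lay near an end of a neighbouring gene, which touches the count of these sites. Whether that end was the neighbour's start or its finish was not examined. Of the 54 myeloid gene-end sites 8 also lay within 1 kb of an end of another protein-coding gene (14.8%), beside 16.4% for all genes. Of these 8, 6 were at mitochondrial genes, namely Mrpl2 (with Klc4), Mrpl10 (Lrrc46), Mrpl12 (Hgs), Mrpl40 (Hira), Mrps16 (Cfap70) and Mrps27 (Ptcd2). The cytosolic ones were Rpl9 (Lias) and Rplp2 (Pidd1). With sites nearer to another gene counted too, 40 cytosolic and 29 mitochondrial genes had a myeloid gene-end site, which is 40.8% of the 169 (33.3 to 48.6), beside 21.4% of all genes under that rule. Mrpl46 and Mrps11, 42 bases apart, had no gene-end site. Many cytosolic genes carry small nucleolar RNAs in their introns. Of the 30 such cytosolic hosts 12 had a myeloid gene-end site (40.0%, 22.7 to 59.4), as did 20 of the other 61 (32.8%, 21.3 to 46.0), and these intervals overlap.

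Ribosomal promoters are rich in CpG, as are promoters with a myeloid site in general, and that was measured beside the counts. For the 139 genes with a promoter entry, a site was counted when its midpoint lay within 1 kb of any listed start, whichever gene was nearest. By this count 62 of 139 had a myeloid site (44.6%, 36.2 to 53.3), beside 22.2% of 17492 promoters. The numbers were 31 of 70 cytosolic and 31 of 69 mitochondrial genes. A promoter was called CpG-rich at a GC content of at least 50% and an observed over expected CpG ratio of at least 0.6. This held for 77.0% of the ribosomal promoters and 45.8% of all. Among CpG-rich promoters 51 of 107 ribosomal ones had a myeloid site (47.7%, 37.9 to 57.5), beside 36.8% of all 8004 and 9.83% of the promoters that were not CpG-rich. The ribosomal share was thus nearer to the background among CpG-rich promoters, whose share lay below the lower bound of 37.9. The part of CpG content in the result was not tested. The AML list had 1 ribosomal promoter with a site by this count (0.719%), beside 2.53% of all promoters, 3.06% of CpG-rich ones and 2.09% of the others.

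**Figure D5:**
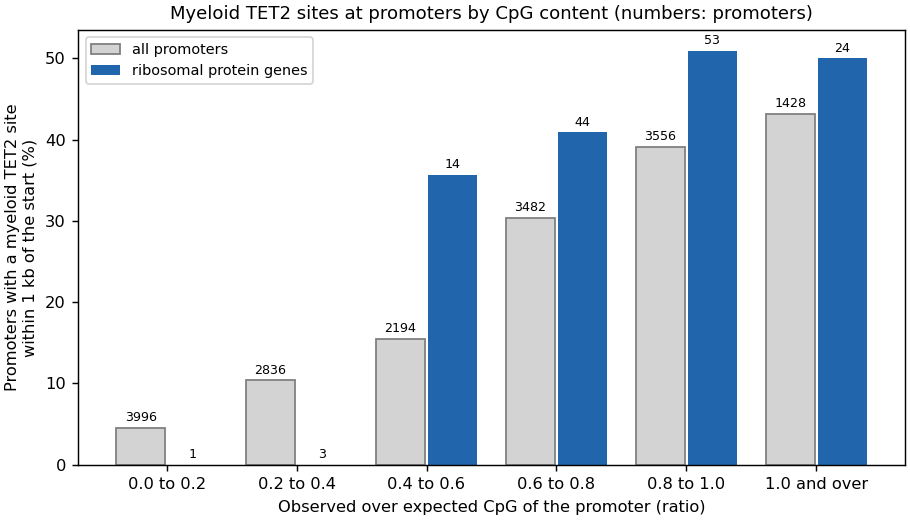
Share of promoters with a myeloid TET2 site within 1 kb of the start (y axis, percent) by the observed over expected CpG ratio of the promoter (x axis), for all protein-coding promoters (grey) and ribosomal protein genes (blue), with the number of promoters above each bar. The share over all promoters climbs from 4.55% to 43.2%, and the ribosomal share is 35.7% to 50.9% in the 4 upper classes, which hold 14 to 53 ribosomal promoters each.

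None of the 62 ribosomal promoters with a myeloid site had an AML site within 1 kb of a start, which allows a share of up to 5.78% (upper limit of the exact interval). Over all promoters with a myeloid site 10.1% also had an AML one (9.14 to 11.1), and over CpG-rich ones 7.60% (6.67 to 8.61). That limit lay below the interval over all promoters with a myeloid site, a comparison not matched for CpG content. Of the 62 ribosomal promoters 51 were CpG-rich, and none of these had an AML site either. With fewer promoters their upper limit is above 5.78%. It was not computed, so the ribosomal share is not said to lie below the CpG-rich interval.

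Promoter letters were searched on both strands for motifs named in clear text, and none of these motifs contains another as written. The ETS letters CCGGAAG were in 35.3% of ribosomal promoters, beside 11.9% of all promoters of the same length. They were in 24 of the 62 with a myeloid site (38.7%, beside 25.6% of all promoters with a myeloid site) and in 25 of the 77 without. Neither background was matched for CpG content, and the ETS letters hold a CpG. Ribosomal promoters were more often CpG-rich (77.0%) than all promoters (45.8%). The YY1 letters AAGATGGC were in 12.9% of ribosomal promoters, beside 3.21% of all. They were in 3 of the 62 with a myeloid site, at Mrps27, Rpl22 and Rps27, and in 15 of the 77 without. The 3 are 4.84%, near the 4.61% of all promoters with a myeloid site. Among mitochondrial genes the YY1 numbers were 1 of 31 with a site and 11 of 38 without. For neither motif was a share taken over all promoters without a site. Over all promoters the YY1 share went the other way, at 4.61% with a myeloid site against 3.21% in all. The NRF1 motif, the later run of capitals in the Mrpl32 promoter above, was in 4 ribosomal promoters (2.88%, beside 1.33%). The RUNX letters TGTGGT (11.5%, beside 15.1%) and the GATA letters AGATAA (11.5%, beside 9.94%) were near the share of all promoters. The C/EBP letters TTGCGCAA and TTGCGTCA were in 0 and 1 of the 139. A pyrimidine tract at the start, as defined above, was in 57.1% of cytosolic, 43.5% of mitochondrial and 31.1% of all promoters. In the cytosolic set it was in 18 of 31 promoters with a myeloid site and in 22 of 39 without. These matches describe letters and not bound factors.

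Among genes of human red cell disease, 12 of the 20 mouse counterparts of Diamond-Blackfan genes had a myeloid site and 10 had one at a gene end (50.0%, 27.2 to 72.8). Rpl11, Rpl26, Rps7, Rps19 and Rps26 were among these 10. For the 12 genes with a myeloid site at any distance the interval was 36.1 to 80.9%. It holds both the 40.0% of all genes and the 48.5% of all ribosomal protein genes. The gene-end background was 18.6% of all genes, and 32.0% of all ribosomal protein genes, which lies inside the gene-end interval. AML sites were at 3 of the 20 (Rpl5, Rps10 and Rps20), none at a gene end. The 3 are 15.0% (3.21 to 37.9), beside 18.6% of all genes with an AML site at any distance. Rps14 had no site in either list, and the nearest was 21.5 kb away in the myeloid list and 29.8 kb in the AML list. All 4 genes of MDM2-binding proteins (Rpl5, Rpl11, Rpl23 and Rps7) had a myeloid site (39.8 to 100%, beside 40.0% of all genes), 3 of them at the gene end (19.4 to 99.4%, beside 18.6%). Of 7 paralogs with restricted or less clear roles 1, Rpl22l1, had a myeloid gene-end site. Rpl3l, a paralog of striated muscle, and Rpl39l, known from testis, had no site in either list. Rpl10l, also known from testis, had 1 myeloid site, 73.5 kb away.

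Other genes of the translation apparatus were read in the same way, against the gene-end shares of all genes, 18.6% (myeloid) and 2.74% (AML). Of 13 elongation and initiation factor genes and TOP messages, 9 had a myeloid gene-end site (69.2%, 38.6 to 90.9), among them Eef1a1, Eef1b2, Eef1g, Eif4b, Tpt1, Rack1 and Npm1. Pabpc1, the poly(A)-binding protein gene, had 7 myeloid sites and 1 AML site, with a gene-end site in each list. Of 20 genes of RNA polymerase I and ribosome assembly 6 had a myeloid gene-end site (30.0%, 11.9 to 54.3) and 2 an AML one, the nucleolin gene Ncl and the RNA methyltransferase gene Nop2. Of 12 mitochondrial translation and transcription factor genes 3 had a myeloid gene-end site (25.0%, 5.49 to 57.2), Tufm, Tfam and Tfb2m, and Tufm, the mitochondrial elongation factor, had an AML one too. Of 7 ribosomal components under other symbols only Aurkaip1 had a myeloid gene-end site, and none had an AML site. The myeloid intervals of the last 3 lists hold the background. No test was made on these lists.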

How the data were processed

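TET2 ChIP-seq libraries were made from 2 cultures of mouse cells. The submitters' processing notes name mm10 as build, and Bowtie2, MACS2 and Trimmomatic as tools. No source used here gives their versions or options, or says how replicate, knockout, IgG and input libraries entered the lists. The deposited lists hold chromosome, start and end of each site, per the file headers, and no other value. Whether starts count from 0 or 1 is not stated, so positions are uncertain by 1 bp. An unplaced contig, with 1 AML site, was not used.

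Overlapping sites of a list were merged, and each was assigned by its midpoint to the protein-coding gene (RefSeq, GRCm38.p6) with the nearest start or end within 100 kb. Sites of the lists were called shared at an overlap of at least 1 bp. Strand, starts and promoter letters came from the RefSeq promoter table, which matched 139 of 169 genes. For the other 30 the start and finish of the gene were not told apart. Python 3.11.15, pandas 2.3.3 and scipy 1.17.1 were used, and assignment and overlap were tested on simulated sites.

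The members and gene lists were chosen with earlier results of these data known. Genes named singly had an AML site, 2 or more myeloid sites, 1 of the 5 widest gene-end sites or 1 of the 3 sites per class nearest a start, or were in a named list. Genes named for a near neighbour, an inner start or a motif, and the CpG, tract and neighbour measures, were chosen after their values were seen. Some genes are not reported here by name. The alternatives are given in the closing section.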

Additional observations from a re-analysis of the deposited data

How the results depend on the processing

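Of 100 recomputed values over 14 settings, 81 stayed within 1.5 times the reported count, or within the interval of the reported share or median, and 19 did not. The number of cytosolic genes with a myeloid gene-end site ran from 11 to 40 (reported 32) and of mitochondrial genes from 10 to 29 (reported 22). Sites of at least the median width left 27 cytosolic and 24 mitochondrial genes with a myeloid site, 15 and 14 with one at a gene end, 4 and 5 genes with an AML site, and 1 cytosolic gene with an AML gene-end site. The median distances then became 21.1 kb in the myeloid list and 148 kb in the AML list, with fewer sites by construction. The widest myeloid sites at the AML list's length left 19 cytosolic and 17 mitochondrial genes with a site and 11 and 10 with one at a gene end. With all annotated genes competing for sites, 3 cytosolic and 4 mitochondrial genes had an AML site. Counting transcription starts alone left 1 cytosolic and 0 mitochondrial genes with an AML gene-end site. Without paralogs and Rps19bp1 the cytosolic AML gene-end count was 1, and it was 1 again without pseudogene and retrogene symbols as well, a setting chosen after seeing the data. No paired analysis was possible because the lists hold no value per library, and for the same reason no replicate could be left out.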
